A study of Mus musculus with 8 samples.

Results

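The Hox genes are homeobox transcription factor genes that lie in 4 clusters, HoxA to HoxD, and are numbered by paralogue group along each cluster. Members were all protein-coding genes of the deposited table whose symbol names a Hox cluster and a number, which gave 39 of 55421 genes, or of 21926 protein-coding genes. By cluster they were 11 HoxA, 10 HoxB, 9 HoxC and 9 HoxD genes. In GRCm38, with the GENCODE M21 annotation, the members of HoxA lay on chromosome 6, all on the minus strand, and those of HoxB spanned chr11:96194316-96368256, those of HoxC chr15:102921103-103036852 and those of HoxD chr2:74668310-74765142, all on the plus strand.

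In the embryo the clusters are opened in order from group 1 to group 13, so that cells further back along the body axis hold the products of higher groups. Groups 9 to 13 also pattern the limb from its root to its tip, with groups 9 and 10 tied to the thigh, group 11 to the shank and group 13 to the foot. Connective and skeletal cells of the adult keep much of this regional pattern, and several members, among them Hoxa9, Hoxa10 and Hoxb4, are also active in blood stem cells and progenitors. Hox proteins bind DNA together with cofactors of the Meis and Pbx families, and their genes are held silent by Polycomb proteins and kept active by Trithorax proteins such as the product of Kmt2a.

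The samples were 8 wildtype C57BL/6 males, 15 weeks old when dosed. The 4 mice of the CTRL group were given saline vehicle into the peritoneum, and the 4 of the DoxoR group 10 mg/kg doxorubicin once, a chemotherapy drug that damages DNA, as a model of senescence. On day 30 the shafts of both tibiae and femurs were stripped of soft tissue, spun to clear the marrow, and pooled into 1 library of polyadenylated RNA per mouse. Thigh and shank bones were not kept apart, so a group 10 and a group 11 pattern within the limb cannot be separated here. The comparison asked how the level of each Hox gene differed between doxorubicin and vehicle bones.

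The libraries held 23699525 to 35747083 counts, and 29 of the 39 members passed the filter on low counts that left 17035 tested genes. Markers of bone cells, marrow and muscle were all detected. The summed level of the 12 osteoblast markers was 6511 to 13347 CPM in vehicle and 5785 to 18625 CPM in doxorubicin, that of the 10 neutrophil markers 13068 to 23262 CPM in vehicle and 10530 to 21620 CPM in doxorubicin, and that of the 13 skeletal muscle markers 5333 to 29745 CPM in vehicle and 16663 to 40456 CPM in doxorubicin, with none of these markers at 0. The tissue label says that marrow was taken out, and neutrophil and erythroid markers were nonetheless abundant. The 6 skin and hair markers together reached between 0.955 and 1.43 CPM in any library. In bulk RNA, fewer cells of a type and less RNA per cell cannot be told apart.

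Hox RNA was low but present in every library, and it came mostly from the middle and later groups of HoxC and HoxA. Levels between genes are given as CPM (counts scaled by library size and TMM factor) per kilobase of merged exons. Hoxc10 stood highest, at 7.47 ± 2.72 CPM per kilobase (SD over 8 libraries), followed by Hoxb4 at 3.13 ± 0.345. Hoxa10 (2.55 ± 0.566), Hoxc9 (2.49 ± 0.471), Hoxa7 (2.37 ± 0.474), Hoxa9 (2.32 ± 0.506), Hoxd8 (2.18 ± 0.825), Hoxa5 (1.94 ± 0.446), Hoxc6 (1.77 ± 0.494) and Hoxc8 (1.41 ± 0.237) came next on the same scale. Hoxc10 lay above Hoxb4, and Hoxb4 above Hoxa10, by more than the larger of their SDs and in 7 of 8 libraries each. From Hoxa10 down to Hoxc8 no neighbour in this order differed from the next by more than the larger SD, whereas Hoxc8 lay above Hoxc4, the next below, in 8 of 8 libraries and by more than that SD.

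**Figure D1:**
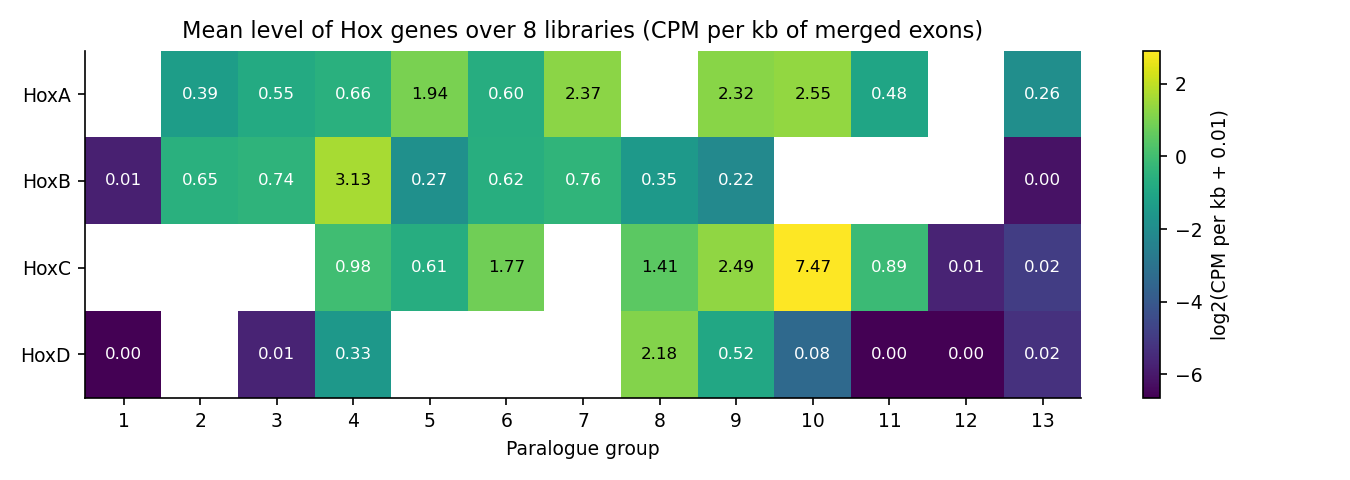
Mean level over 8 libraries of the Hox genes, arranged by cluster (rows) and paralogue group (columns), in CPM per kilobase of merged exons, with colour on a log2 scale; white cells hold no gene or a gene that is not reported here. The brightest cell is Hoxc10 at 7.47, and the darkest are Hoxd1, Hoxd11 and Hoxd12, which had no count.

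The order depended in part on the length used. Hoxc10 was highest with merged exons and with the longest transcript, and second, at 13.9 CPM per kilobase of coding sequence, behind Hoxa9 at 15.9. Hoxb4 ranked second with merged exons, 5 with the longest transcript and 3 with coding length. The merged exons of Hoxa9 cover 5580 bases against 3226 in its longest transcript.

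Summed per kilobase over its members, HoxC held 40.9% ± 4.50 of all Hox RNA (SD over 8 libraries), HoxA 32.7% ± 3.41, HoxB 18.2% ± 3.94 and HoxD 8.17% ± 2.49. With coding length, HoxA held 37.9% and HoxC 35.1%. By position, groups 1 to 3 held 6.95% ± 1.97, groups 4 to 8 47.9% ± 4.78 and groups 9 to 13 45.2% ± 6.39. Group 10, which holds Hoxa10, Hoxc10 and Hoxd10, was the highest single group at 26.2% ± 5.47, and group 9 followed at 14.6% ± 0.733. With coding length the order of these 2 was reversed, group 9 at 21.8% ± 1.09 and group 10 at 17.5% ± 3.67. With merged exons the shares past group 10 were small: group 11 held 3.54% ± 0.929, group 12 0.0247% ± 0.0458 and group 13 0.738% ± 0.457.

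HoxD had the fewest tested members, 3 of its 9, against 11 of 11 in HoxA, 8 of 10 in HoxB and 7 of 9 in HoxC. Hoxd8 carried most of its RNA, and Hoxd4 and Hoxd9 were the other tested members. Toward its posterior end the counts fell away: Hoxd9 had 238 counts over the 8 libraries, Hoxd10 31, Hoxd11 0, Hoxd12 0 and Hoxd13 8. Hoxd11, a group 11 gene of the embryonic shank and forearm, had 0 counts in all 8 libraries, while Hoxa11 had 241. Whether the exact 0 of Hoxd1, Hoxd11 and Hoxd12 came from expression or from how reads were assigned was not tested. Of the 50-base stretches of Hoxd11, 10.0% also occur in Gm28309 or other genes, whereas for Hoxd1 and Hoxd12 this share was 0%. Taken as counts, a total of 0 counts allows a level of up to 0.0132 CPM over the 8 libraries together, for counting error only.

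In all, 10 members were not tested, of which Hoxd1, Hoxd11 and Hoxd12 had no count. The others had 31 counts or fewer over the 8 libraries: Hoxd10 had 31, Hoxc13 (a gene of hair and nail) 14, Hoxd3 8, Hoxd13 (a gene of the digits) 8, Hoxb1 4, Hoxb13 2 and Hoxc12 2. Of these, Hoxd13 had 0 counts in each vehicle library and 2, 1, 2 and 3 in doxorubicin 1 to 4, and Hoxd10 had 0, 5, 0 and 2 in vehicle 1 to 4 and 6, 5, 4 and 9 in doxorubicin 1 to 4. No fold is given for Hoxd13, since 0 counts in a library allows up to 3, the highest count seen. Of the 50-base stretches of Hoxd3 transcripts, 60.2% also occur in transcripts of Hoxd4 or Gm28230, so its reads and theirs cannot be told apart there.

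Promoter sequences are shown for 4 members that stand at different places in this order: Hoxb4, second in level with merged exons, Hoxd8, the main HoxD gene, Hoxd11, with no count, and Hoxa11, which had the largest log2 difference among members with an unadjusted p under 0.05. Each is the RefSeq window from 250 bases before to 50 after a gene start (GRCm38.p6), 5′ to 3′ on the gene's own strand, with each CpG in capitals. The windows are chr11:96318017-96318316, plus strand for Hoxb4, chr2:74704365-74704664, plus strand for Hoxd8, chr2:74679308-74679607, plus strand for Hoxd11 and chr6:52245761-52246060, minus strand for Hoxa11.
Hoxb4: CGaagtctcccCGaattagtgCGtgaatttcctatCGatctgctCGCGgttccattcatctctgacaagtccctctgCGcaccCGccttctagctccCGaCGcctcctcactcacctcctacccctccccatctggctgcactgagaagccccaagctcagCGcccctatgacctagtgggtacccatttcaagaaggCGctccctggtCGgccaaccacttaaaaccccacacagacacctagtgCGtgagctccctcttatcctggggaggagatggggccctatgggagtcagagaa
Hoxd8: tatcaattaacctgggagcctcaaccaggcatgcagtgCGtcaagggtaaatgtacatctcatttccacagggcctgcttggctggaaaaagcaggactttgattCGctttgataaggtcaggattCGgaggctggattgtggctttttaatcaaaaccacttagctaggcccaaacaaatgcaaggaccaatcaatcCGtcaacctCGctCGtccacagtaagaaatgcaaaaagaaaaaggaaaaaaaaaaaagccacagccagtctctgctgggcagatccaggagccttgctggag
Hoxd11: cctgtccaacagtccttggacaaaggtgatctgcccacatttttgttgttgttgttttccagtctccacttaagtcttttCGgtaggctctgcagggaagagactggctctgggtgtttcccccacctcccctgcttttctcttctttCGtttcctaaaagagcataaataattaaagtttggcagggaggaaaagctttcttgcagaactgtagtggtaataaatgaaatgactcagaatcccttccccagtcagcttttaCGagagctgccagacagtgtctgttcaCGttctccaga
Hoxa11: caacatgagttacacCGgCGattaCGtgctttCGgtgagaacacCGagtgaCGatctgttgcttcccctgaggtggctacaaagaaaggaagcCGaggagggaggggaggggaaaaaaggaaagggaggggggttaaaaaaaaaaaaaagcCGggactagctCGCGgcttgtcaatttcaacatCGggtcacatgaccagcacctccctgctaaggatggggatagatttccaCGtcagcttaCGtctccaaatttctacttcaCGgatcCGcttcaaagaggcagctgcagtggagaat
They hold 14, 6, 4 and 15 CpGs in that order, so the Hoxd8 window, of a gene at 2.18 CPM per kilobase, had about as few as this Hoxd11 window. RefSeq lists a second start of Hoxd11, whose window (chr2:74682073-74682372) holds 25. In the table used, 22 of the 39 members had a window, 24 windows in all. They were uneven over the clusters, as Hoxc4 was the only HoxC member with a window and Hoxc10 had none. The median of the 24 windows was 14.5 CpGs, against 7 over all 32851 windows. The motif CCAAT, searched on both strands, was in 15 of the 24 Hox windows (62.5%) and in 37.4% of all windows of the same length, and TATAAA was in 4 (16.7%) against 13.6%. TAATTA, a core to which many homeodomains bind, was in 2 (8.33%), both of Hoxd11, against 5.29%. These matches are letters in a window, not binding sites.

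None of the 29 tested Hox genes differed between the groups past the threshold, and the tested members as a set lay mostly on the higher side in doxorubicin. In edgeR's quasi-likelihood test with Benjamini-Hochberg adjustment, 0 of 29 tested members passed an adjusted p of 0.05, where 0% of all 17035 tested genes did, and the smallest adjusted p of a member was 0.825, that of Hoxa4. DESeq2 also called 0 members, where it called 0.17% of all tested genes, and limma-voom called 0. At an unadjusted p under 0.05, edgeR had 5 members, all higher in doxorubicin, against 5.36% of all tested genes in either direction and 2.13% higher. Over all tested genes these were 362 higher and 551 lower, or 151 and 535 when scaled by library size alone. DESeq2 had the same number, 5, and limma-voom 4. The log2 difference, doxorubicin minus vehicle, was above 0 in 22 of 29 members, against 57.2% of all tested genes, and its median was 0.27 over the members against 0.04 over all tested genes. The members share libraries and cell types, so their number is not a number of separate observations. All 13 skeletal muscle markers and all 8 osteoclast markers lay above 0, the latter with a median log2 difference of 0.50. Above 0 were also 9 of 12 osteoblast markers (median 0.34), 8 of 11 periosteal and fibroblast markers (0.19) and 5 of 6 cartilage markers (1.06). Stromal progenitor markers lay mostly below 0, with 1 of 6 above it (median −0.22). All 8 megakaryocyte markers, with a median of −0.54 and 6 at an unadjusted p under 0.05, and all 10 erythroid markers lay below 0, while neutrophil markers split 5 and 5, and 0 of any of these passed the threshold in edgeR. The erythroid sum was 17747 to 35093 CPM in vehicle and 13890 to 29929 CPM in doxorubicin. The part of other cell types in the Hox differences was not tested beyond the values with covariates. With other settings the 5 became as few as 2 (without doxorubicin 1, when 801 of all genes had such a p) and as many as 6 (without doxorubicin 3, when 1332 did). It was 3 without vehicle 4 (1800 of all genes), without doxorubicin 2 (817), when scaled by library size alone (686) and with the marrow covariate (1192).

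**Figure D2:**
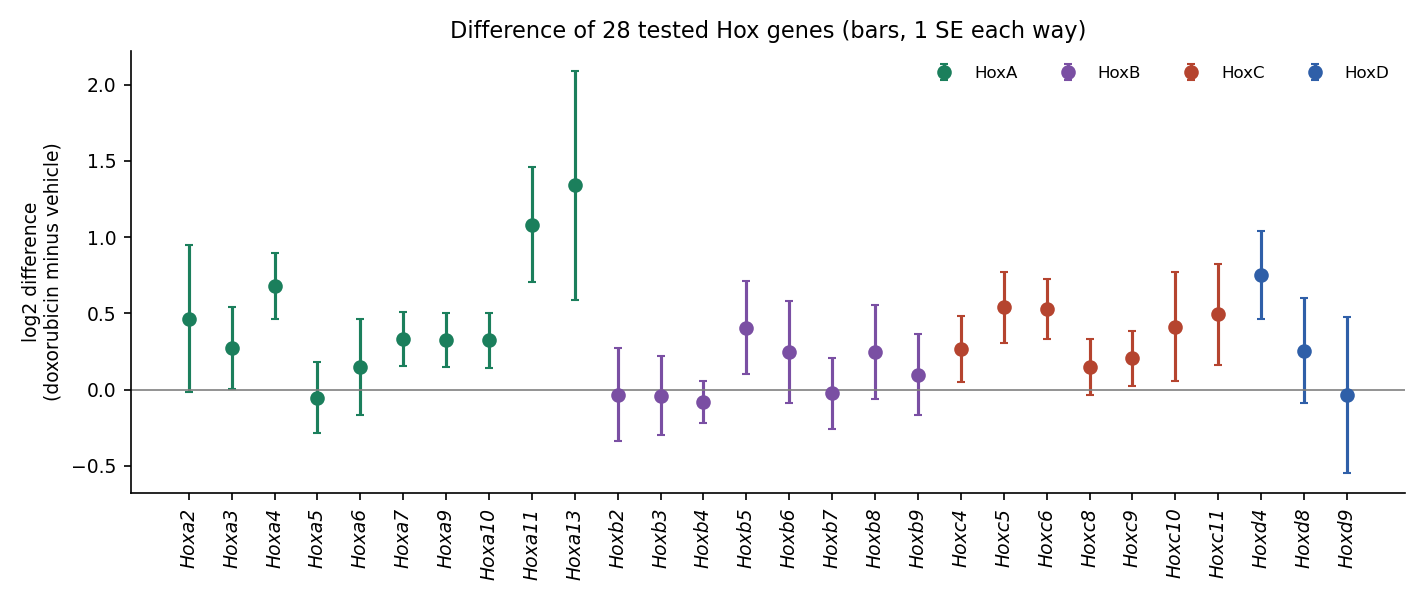
Log2 difference (doxorubicin minus vehicle) of 28 of the 29 tested Hox genes in edgeR, in order of paralogue group within each cluster, with bars of 1 SE each way. All 7 HoxC points lie above 0, as do 9 HoxA, 4 HoxB and 2 HoxD points; none passed the threshold.

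The clusters differed in this respect by their counts alone, and the difference between clusters was not tested. The median log2 difference was 0.41 over 7 HoxC members, 0.33 over 11 HoxA members, 0.26 over 3 HoxD members and 0.04 over 8 HoxB members. By position it was −0.03 over the 5 tested members of groups 1 to 3, 0.26 over the 15 of groups 4 to 8 and 0.33 over the 9 of groups 9 to 13. Summed level was 13.7 ± 2.87 CPM per kilobase with vehicle against 17.7 ± 4.00 with doxorubicin (SD, n = 4 in both) for HoxC, 11.0 ± 1.18 CPM per kilobase with vehicle against 13.8 ± 2.73 with doxorubicin (SD, n = 4 in both) for HoxA, 6.71 ± 1.18 CPM per kilobase with vehicle against 6.77 ± 0.682 with doxorubicin (SD, n = 4 in both) for HoxB and 2.82 ± 1.16 CPM per kilobase with vehicle against 3.45 ± 1.24 with doxorubicin (SD, n = 4 in both) for HoxD. In each of the 4 clusters the groups overlapped on this sum.

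Hoxa4, a gene that patterns the neck vertebrae, was the 1 tested member whose groups did not overlap. It measured 0.824, 0.887, 0.711 and 0.810 CPM in vehicle 1 to 4 and 1.39, 1.17, 1.05 and 1.56 CPM in doxorubicin 1 to 4, so that every doxorubicin library lay above every vehicle library, which 1.64% of all tested genes also showed. In either direction, 3.59% of all tested genes had groups that did not overlap. Its log2 difference was 0.68 ± 0.22 (SE), with an unadjusted p of 0.0108 and an adjusted p of 0.825 in edgeR. It was 0.59 with the marrow covariate, 0.57 with the muscle covariate and between 0.58 and 0.74 with any library left out. In the annotation 13.3% of its 50-base stretches also occur, on the opposite strand, in the non-coding gene Gm29430, and no source used here says whether counting used strand.

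Hoxa11, the shank gene of HoxA, measured 0.899, 0.700, 0.533 and 0.709 CPM in vehicle 1 to 4 and 2.61, 1.53, 0.757 and 1.13 CPM in doxorubicin 1 to 4. Doxorubicin 1 and 2 lay highest and vehicle 3 lowest, and doxorubicin 3 fell among the vehicle libraries. The log2 difference was 1.08 ± 0.38 (SE), with an unadjusted p of 0.0168 and an adjusted p of 0.856 in edgeR. It was 0.68 without doxorubicin 1 and 0.68 with the marrow covariate. Its antisense partner Hoxa11os, a non-coding RNA, measured 0.899, 0.187, 0.203 and 0.776 CPM in vehicle 1 to 4 and 1.52, 1.29, 0.692 and 0.999 CPM in doxorubicin 1 to 4, with a log2 difference of 1.12 ± 0.50 (SE). Their exons overlap, with 33% of the 50-base stretches of Hoxa11 found on the other strand in Hoxa11os, so reads of the pair cannot be told apart unless counting used strand.

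The other 3 members with an unadjusted p under 0.05 were Hoxc5, Hoxc6 and Hoxd4. Hoxc6, a gene of the thoracic region, measured 3.18, 2.99, 3.66 and 4.08 CPM in vehicle 1 to 4 and 5.31, 6.61, 3.89 and 4.30 CPM in doxorubicin 1 to 4. Hoxc5 measured 1.46, 1.26, 1.88 and 1.52 CPM in vehicle 1 to 4 and 3.04, 2.31, 1.71 and 1.91 CPM in doxorubicin 1 to 4. For both genes doxorubicin 1, 2 and 4 lay above every vehicle library, doxorubicin 4 by little, and doxorubicin 3 lay within the vehicle range. The log2 difference was 0.53 ± 0.20 (SE) for Hoxc6, or 0.34 without doxorubicin 2, and 0.54 ± 0.23 (SE) for Hoxc5, or 0.35 without doxorubicin 1. The exons of Hoxc5 and Hoxc10 share 166 bases on the same strand in the annotation. Hoxd4, a neighbour of Hoxd3 in HoxD, measured 1.09, 0.747, 0.508 and 0.540 CPM in vehicle 1 to 4 and 1.04, 1.05, 1.25 and 1.48 CPM in doxorubicin 1 to 4. Vehicle 1 lay above doxorubicin 1 and 2, and the log2 difference was 0.75 ± 0.29 (SE). As 46.8% of the 50-base stretches of Hoxd4 are shared with Hoxd3 or Gm28230, its counts are uncertain.

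**Figure D3:**
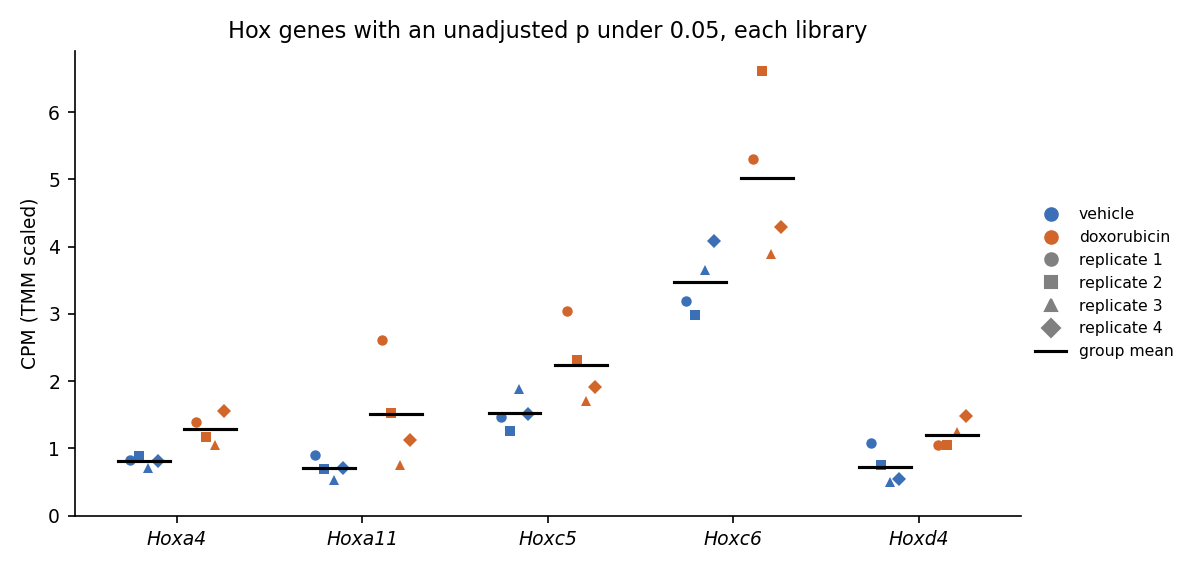
CPM in each library of the 5 Hox genes with an unadjusted p under 0.05 in edgeR; colour marks the group, shape the replicate and the bar the group mean. Only for Hoxa4 do the 4 doxorubicin libraries all lie above the 4 vehicle libraries.

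The limb groups, 9 to 13, held 16 members, of which 9 were tested, 8 of them above 0. Hoxc10, a gene of the hindlimb and lower trunk, measured 12.7, 14.4, 4.93 and 17.0 CPM in vehicle 1 to 4 and 20.9, 14.0, 10.3 and 20.0 CPM in doxorubicin 1 to 4. Vehicle 3 lay far below the rest and the groups overlapped, and the log2 difference, 0.41 ± 0.36 (SE), became 0.11 without vehicle 3 and 0.25 without doxorubicin 1. Hoxc9, its neighbour, measured 5.70, 5.69, 5.59 and 5.54 CPM in vehicle 1 to 4 and 8.52, 6.85, 4.77 and 5.82 CPM in doxorubicin 1 to 4. Hoxc9 was even among the vehicle libraries and spread among the doxorubicin ones, where doxorubicin 1 was highest and doxorubicin 3 lowest, and its log2 difference was 0.20 ± 0.18 (SE), or 0.0319 without doxorubicin 1 and 0.0612 with the marrow covariate. Hoxc11 measured 0.937, 2.33, 1.09 and 1.65 CPM in vehicle 1 to 4 and 2.78, 1.74, 1.38 and 2.52 CPM in doxorubicin 1 to 4, with a log2 difference of 0.49 ± 0.33 (SE), or 0.75 without vehicle 2 and 0.31 without doxorubicin 1. Vehicle 1 and 3 were the lowest and doxorubicin 1 and 4 the highest.

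In HoxA, Hoxa9, which drives self-renewal of blood progenitors and also patterns the limb, measured 10.8, 11.6, 11.4 and 12.1 CPM in vehicle 1 to 4 and 17.8, 15.8, 9.48 and 14.5 CPM in doxorubicin 1 to 4. Its neighbour Hoxa10 measured 6.93, 7.93, 6.42 and 8.34 CPM in vehicle 1 to 4 and 12.3, 9.22, 7.08 and 8.47 CPM in doxorubicin 1 to 4. In both genes doxorubicin 1 was highest while doxorubicin 3 was the lowest library of all for Hoxa9 and lay within the vehicle range for Hoxa10, and the log2 differences were 0.33 ± 0.18 (SE) for Hoxa9 and 0.32 ± 0.18 (SE) for Hoxa10. Without doxorubicin 1 they were 0.19 and 0.14, and with the marrow covariate 0.16 and 0.19. Hoxa13, the foot gene of the cluster, measured 0.787, 0.187, 0.0254 and 0.439 CPM in vehicle 1 to 4 and 1.74, 0.721, 0.263 and 0.912 CPM in doxorubicin 1 to 4. It had the largest log2 difference of the tested members and the widest spread, 1.34 ± 0.75 (SE). Its values in vehicle 2 and 3 rest on 4 and 1 counts, and 0 counts in vehicle 3 would allow up to 0.0762 CPM, so the difference is uncertain. The difference was 2.08 without vehicle 1, 0.81 without doxorubicin 1, 0.84 without vehicle 3, 0.80 with the muscle covariate and 0.64 with the marrow covariate. Its coefficient of variation over the 8 libraries was 85.9%, against a median of 28.9% over the tested members.

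In HoxD and HoxB, Hoxd9, a thigh gene of the embryo, measured 0.862, 1.49, 0.279 and 1.89 CPM in vehicle 1 to 4 and 0.957, 0.991, 0.692 and 1.74 CPM in doxorubicin 1 to 4. Its groups overlapped widely, and the log2 difference, −0.04 ± 0.51 (SE), became 0.33 without vehicle 4. Hoxb9, the last member of HoxB with more than 2 counts, measured 0.562, 0.467, 0.711 and 0.405 CPM in vehicle 1 to 4 and 0.478, 0.571, 0.659 and 0.608 CPM in doxorubicin 1 to 4. Its groups overlapped, with a log2 difference of 0.10 ± 0.27 (SE).

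**Figure D4:**
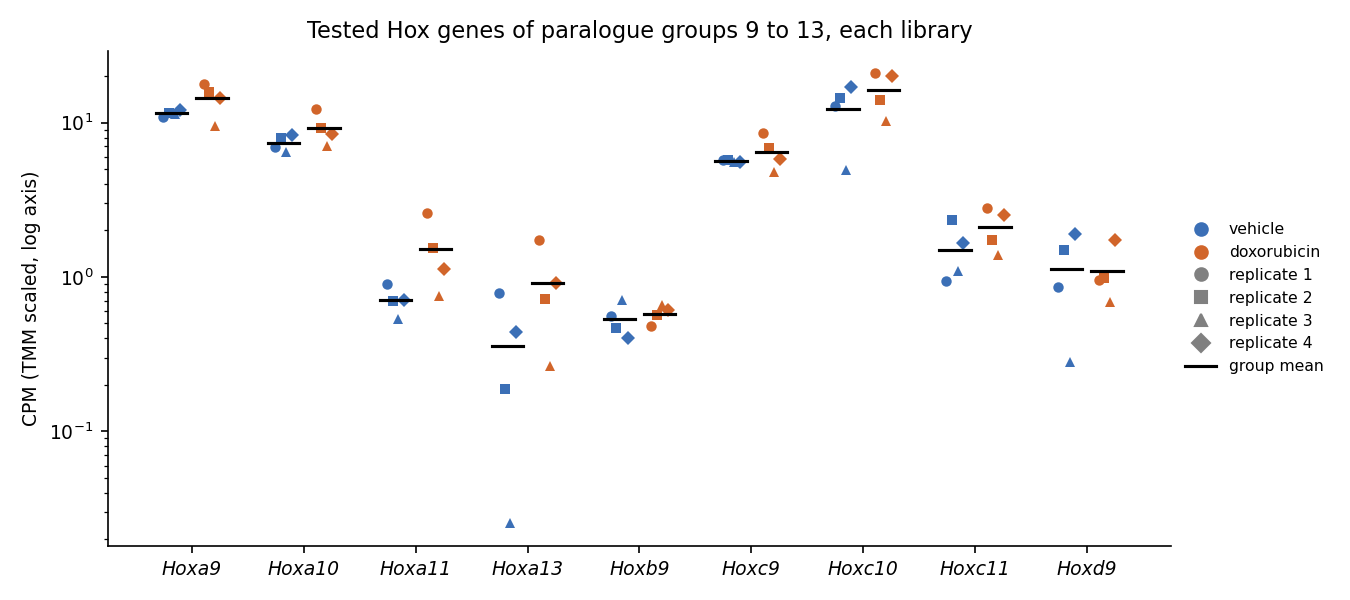
CPM in each library, on a log axis, of the 9 tested Hox genes of paralogue groups 9 to 13; colour marks the group, shape the replicate and the bar the group mean. Vehicle 3 (blue triangles) is lowest of all libraries for Hoxa10, Hoxa11, Hoxa13, Hoxc10 and Hoxd9, and in each gene the 2 groups overlap.

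Among groups 1 to 8, Hoxb4, which expands blood stem cells when supplied in excess, varied least. It measured 7.83, 7.61, 9.95 and 7.60 CPM in vehicle 1 to 4 and 7.35, 7.45, 7.71 and 8.73 CPM in doxorubicin 1 to 4, a coefficient of variation of 11.0%, the lowest of the 29 tested members, and a log2 difference of −0.08 ± 0.14 (SE). Hoxb3 measured 2.29, 2.38, 4.14 and 3.85 CPM in vehicle 1 to 4 and 2.96, 4.21, 2.37 and 2.82 CPM in doxorubicin 1 to 4, with a log2 difference of −0.04 ± 0.26 (SE). Of its 50-base stretches 51.4% occur on the opposite strand in Hoxb3os, so the pair cannot be told apart unless counting used strand. Hoxb7 measured 1.05, 0.980, 1.60 and 1.08 CPM in vehicle 1 to 4 and 1.17, 1.11, 1.38 and 0.999 CPM in doxorubicin 1 to 4, with a log2 difference of −0.02 ± 0.23 (SE). For Hoxb4 and Hoxb7 vehicle 3 was the highest library, the reverse of its place in Hoxc10 and Hoxd9. For Hoxb3 vehicle 3 was second to doxorubicin 2. The other HoxB members tested, Hoxb2, Hoxb5, Hoxb6 and Hoxb8, had log2 differences from −0.03 (Hoxb2) to 0.41 (Hoxb5).

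Hoxa5, which acts in lung and in the neck to chest border, measured 3.86, 3.17, 5.03 and 2.77 CPM in vehicle 1 to 4 and 4.00, 4.51, 3.00 and 2.82 CPM in doxorubicin 1 to 4, with a log2 difference of −0.05 ± 0.23 (SE). Hoxa7 measured 6.18, 4.29, 6.93 and 6.68 CPM in vehicle 1 to 4 and 9.09, 7.66, 6.45 and 7.25 CPM in doxorubicin 1 to 4, with a log2 difference of 0.33 ± 0.18 (SE), or 0.19 without vehicle 2. Hoxa5 was highest in vehicle 3, and Hoxa7 in doxorubicin 1. Hoxa7 was lowest in vehicle 2 and Hoxa5 in vehicle 4, next to doxorubicin 4. Hoxa2, Hoxa3 and Hoxa6 had log2 differences from 0.15 (Hoxa6) to 0.46 (Hoxa2), with SEs from 0.27 to 0.48. Hoxa2 was 1.07 without vehicle 3, 0.17 without vehicle 2 and 0.95 with the muscle covariate, and Hoxa3 was 0.0861 without vehicle 2.

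In HoxC, Hoxc8, which sets the identity of rib-bearing vertebrae, measured 3.41, 4.29, 4.16 and 3.27 CPM in vehicle 1 to 4 and 4.09, 5.35, 3.42 and 3.86 CPM in doxorubicin 1 to 4, with a log2 difference of 0.15 ± 0.18 (SE). Hoxc4 measured 2.51, 2.19, 1.83 and 2.60 CPM in vehicle 1 to 4 and 3.65, 2.49, 2.07 and 2.78 CPM in doxorubicin 1 to 4, with a log2 difference of 0.27 ± 0.22 (SE), or 0.0842 without doxorubicin 1 and 0.13 without vehicle 3. Doxorubicin 2 was highest for Hoxc8 and doxorubicin 1 for Hoxc4, and in both genes the groups overlapped. Hoxd8 measured 3.97, 7.47, 3.17 and 7.19 CPM in vehicle 1 to 4 and 6.39, 6.22, 3.59 and 9.77 CPM in doxorubicin 1 to 4, with a log2 difference of 0.26 ± 0.35 (SE). Vehicle 1 and 3 and doxorubicin 3 were its low libraries.

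The library in which a member was highest or lowest differed between members. Of the 29 tested members, 11 were lowest in vehicle 2 and 10 in vehicle 3, while 11 were highest in doxorubicin 1, 8 in vehicle 3, 6 in doxorubicin 2 and 3 in doxorubicin 4. Highest and lowest libraries were not counted over all tested genes, so whether this is particular to Hox genes is not known. The 10 lowest in vehicle 3 were Hoxa4, Hoxa10, Hoxa11, Hoxa13, Hoxb8, Hoxc4, Hoxc10, Hoxd4, Hoxd8 and Hoxd9. The 8 highest in the same library included Hoxa2, Hoxa5, Hoxa6, Hoxb2, Hoxb4, Hoxb7 and Hoxb9. Vehicle 3 also had the lowest skeletal muscle score (the mean log2 CPM of 13 markers), 8.22, against 9.86 in doxorubicin 3 and 10.05 to 11.04 in the other 6 libraries. The marrow score (20 neutrophil and erythroid markers) was highest in doxorubicin 3, at 9.74, and vehicle 3, at 9.63, and lowest in doxorubicin 1, at 8.81. The osteoblast score, formed in the same way, was lowest in vehicle 2, at 6.97. It was highest in doxorubicin 2, at 8.14, and doxorubicin 1, at 8.08, and it was not used as a covariate.

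Each tested member was set against 4 marker scores over the 8 libraries, which gave 116 relations, and 3 passed an adjusted p of 0.05 for Pearson's r, against 0 for Spearman's rho. With library size as the only scaling, 0 passed. Points share library, depth and scaling. Hoxc10 followed the skeletal muscle score, with Pearson's r = 0.96 (exact permutation p = 0.00112, adjusted p = 0.0432) and Spearman's rho = 0.86 (exact permutation p = 0.0107, adjusted p = 0.297). Its r was 0.74 without vehicle 3 and doxorubicin 3, the libraries farthest from the median of the score. With the muscle covariate the log2 difference of Hoxc10 was 0.11, against 0.41 without it. Hoxd9 and Hoxd8 followed the stem and progenitor score, Hoxd9 with Pearson's r = 0.89 (exact permutation p = 9.92e-05, adjusted p = 0.0115) and Spearman's rho = 0.95 (exact permutation p = 0.00114, adjusted p = 0.0662), and Hoxd8 with Pearson's r = 0.91 (exact permutation p = 0.000843, adjusted p = 0.0432) and Spearman's rho = 0.90 (exact permutation p = 0.00456, adjusted p = 0.176). Without the same pair of libraries their r was 0.82 and 0.76. That score ran only from 3.41 to 3.54, and the 2 genes also had a positive r with the muscle score, with r of 0.86 for Hoxd9 (0.21 without that pair) and 0.75 for Hoxd8, each with an adjusted p of 0.162 in the exact permutation test.

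Members that varied against the markers did not pass the threshold. Hoxb7 ran against the muscle score, with Pearson's r = −0.86 (exact permutation p = 0.00975, adjusted p = 0.155) and Spearman's rho = −0.71 (exact permutation p = 0.0576, adjusted p = 0.445). Its r was −0.16 without vehicle 3 and doxorubicin 3, so the relation to muscle rests on those libraries. Against the stem and progenitor score the r of Hoxb7 was −0.88 (exact permutation p = 0.00454, adjusted p = 0.115), or −0.52 without those libraries. Hoxc9 ran against the marrow score, with Pearson's r = −0.81 (exact permutation p = 0.00494, adjusted p = 0.115) and Spearman's rho = −0.95 (exact permutation p = 0.00114, adjusted p = 0.0662). Hoxa11 did so as well, with Pearson's r = −0.82 (exact permutation p = 0.00977, adjusted p = 0.155) and Spearman's rho = −0.81 (exact permutation p = 0.0218, adjusted p = 0.316), and their r was −0.76 and −0.84 without the same libraries. Hoxa9 and Hoxa10, known from blood progenitors, had r of −0.78 and −0.70 with the marrow score, which holds neutrophil and erythroid markers. Against the stem and progenitor score their r was 0.44 and 0.40, or −0.11 and −0.24 without the same libraries, and neither passed. Of the 29 members, 21 had a negative r with the marrow score. With the osteoblast score r was positive in 24 of 29 members, with a median of 0.40, and 0 passed. The signs of r were not counted over all tested genes, so neither count can be read as particular to Hox genes.

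**Figure D5:**
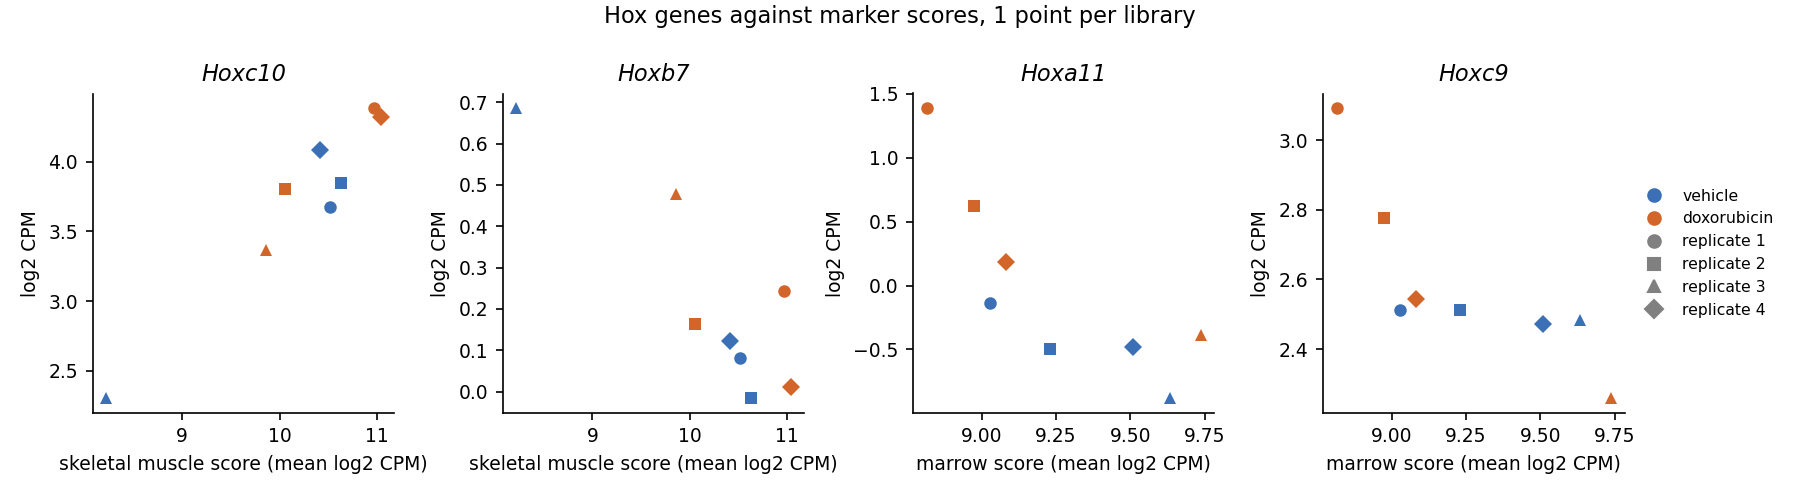
Log2 CPM of Hoxc10 and Hoxb7 against the skeletal muscle score, and of Hoxa11 and Hoxc9 against the marrow score (scores are mean log2 CPM), 1 point per library; colour marks the group and shape the replicate. Hoxc10 lies higher in libraries with a higher muscle score, with vehicle 3 at the low end, and Hoxb7 in vehicle 3 lies above all other libraries.

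The Hox clusters also held 11 non-coding genes named for them, 6 of which were tested. Hoxa11os, described with Hoxa11, had the smallest p of these, 0.0480 before adjustment and 0.856 after it in edgeR. Hoxaas3, which overlaps Hoxa7 and Hoxa3 on the other strand, measured 0.450, 0.607, 0.559 and 0.439 CPM in vehicle 1 to 4 and 0.261, 0.300, 0.626 and 0.130 CPM in doxorubicin 1 to 4, with a log2 difference of −0.59 ± 0.41 (SE). Hotairm1, a HoxA transcript known from myeloid cells, had a log2 difference of −0.27 ± 0.33 (SE), Hoxb3os one of −0.07 ± 0.27 (SE), Hoxaas2 one of 0.09 ± 0.29 (SE) and Hoxd3os1 one of −0.02 ± 0.27 (SE). Of the 5 not tested, Hotair had 53 counts over the 8 libraries, Halr1 30, Hottip 4, Haglr 1 and Hoxb5os 1. Hotair, transcribed between Hoxc11 and Hoxc12, had 5, 1, 5 and 7 counts in vehicle 1 to 4 and 9, 15, 4 and 7 in doxorubicin 1 to 4, so the groups overlapped.

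The cofactors of Hox proteins were all expressed and lay on both sides of 0. Of the 9 TALE cofactors (the Meis, Pbx and Pknox genes), all tested, 3 lay above and 6 below 0, with a median log2 difference of −0.04 and 0 past the threshold in edgeR. Meis1, the partner of Hoxa9 in blood progenitors, measured 13.2, 15.6, 15.6 and 12.7 CPM in vehicle 1 to 4 and 9.48, 12.7, 10.2 and 12.4 CPM in doxorubicin 1 to 4. Every doxorubicin library lay below every vehicle library, though doxorubicin 2 and vehicle 4 are equal as rounded here, with a log2 difference of −0.35 ± 0.14 (SE), an unadjusted p of 0.0298 and an adjusted p of 0.856 in edgeR. Groups that do not overlap, in either direction, were found in 3.59% of all tested genes. Pknox2 had a log2 difference of 0.47 ± 0.25 (SE) and Pbx4 one of −0.47 ± 0.26 (SE).

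Of the 17 Polycomb genes, 8 lay above and 9 below 0, with 0 past the threshold and none at an unadjusted p under 0.05 in edgeR. Ezh2, the methyltransferase of Polycomb complex PRC2, was at a mean of 71.0 CPM (SD 6.81, n = 4) with vehicle against 60.5 CPM (SD 8.07, n = 4) with doxorubicin, its paralogue Ezh1 at a mean of 31.1 CPM (SD 3.21, n = 4) with vehicle against 35.8 CPM (SD 1.83, n = 4) with doxorubicin, and Jarid2, which guides the same complex, at a mean of 48.7 CPM (SD 1.89, n = 4) with vehicle against 42.0 CPM (SD 3.68, n = 4) with doxorubicin. Their log2 differences were −0.23 ± 0.12 (SE), 0.20 ± 0.11 (SE) and −0.21 ± 0.10 (SE). Of the 13 Trithorax genes, 8 lay above and 5 below 0, again with 0 past the threshold. Psip1, which tethers the Kmt2a complex to chromatin, was at a mean of 113 CPM (SD 17.4, n = 4) with vehicle against 91.1 CPM (SD 9.04, n = 4) with doxorubicin, a log2 difference of −0.30 ± 0.13 (SE) with an unadjusted p of 0.0452 and an adjusted p of 0.856 in edgeR. Kmt2a had a log2 difference of −0.16 ± 0.13 (SE) and the demethylase gene Kdm6a one of −0.12 ± 0.10 (SE).

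Limb identity genes were read as a check of the hindlimb label. Pitx1 and Tbx4, which specify the hindlimb, had 382 and 123 counts over the 8 libraries, and Tbx5, which specifies the forelimb, had 29, with no scaling for gene length. Of the 19 genes of this list, which also holds Cdx1, Cdx2, Cdx4, Evx1 and Evx2, 9 were tested. Of these 9, 8 lay above 0, where 57.2% of all tested genes did. Their median log2 difference was 0.34, with 0 past the threshold in edgeR. Msx1, a homeobox gene of the limb bud, measured 1.20, 0.420, 1.17 and 1.65 CPM in vehicle 1 to 4 and 2.13, 1.89, 2.01 and 1.74 CPM in doxorubicin 1 to 4. Its doxorubicin libraries all lay above its vehicle libraries, with a log2 difference of 0.78 ± 0.33 (SE), an unadjusted p of 0.0376 and an adjusted p of 0.856 in edgeR. Prrx1, a gene of limb mesenchyme, had a log2 difference of 0.34 ± 0.16 (SE), Pitx1 one of 0.40 ± 0.25 (SE) and Tbx4 one of 0.54 ± 0.46 (SE). Cdx2 and Cdx4, which open the clusters in the embryo, had 0 counts, and Cdx1 had 1.

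Genes next to the clusters lay on both sides of 0. Of 16 flanking genes 13 were tested, 6 above and 7 below 0, with a median log2 difference of −0.01 and 0 past the threshold or at an unadjusted p under 0.05 in edgeR. Calcoco1, beside HoxC, had a log2 difference of 0.32 ± 0.19 (SE), and Cbx3 and Hnrnpa2b1, near HoxA, had −0.20 ± 0.14 (SE) and −0.19 ± 0.13 (SE). Evx1 and Evx2, homeobox genes at the posterior ends of HoxA and HoxD, had 14 and 5 counts over the 8 libraries and were not tested.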

How the data were processed

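The deposited values are gene counts from polyadenylated RNA of 8 libraries, 1 per mouse. Their unit was taken as the authors' expected counts, since the submitters' processing notes name RSEM 1.3.0 beside STAR 2.5.3a; all are whole numbers. The build in those notes is GRCh38, a human one, although every library is from mouse and identifiers are murine. Not given in the sources used here are the annotation, any filter, and whether counting used strand or the adaptors' molecular identifiers. Reads are therefore not taken as independent molecules, and limits from counts cover counting error only.

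Genes were kept by filterByExpr (minimum count 10, minimum total 15), scaled by TMM and tested, two-sided, by quasi-likelihood in edgeR 4.0.16 under R 4.3.3 (robust option), Benjamini-Hochberg adjusted over 17035 genes, a threshold of 0.05 and no block. As alternatives, limma-voom (limma 3.58.1) and DESeq2 1.42.0 were run; the latter left no adjusted p undefined. SEs come from the F statistic, and log2 CPM uses a prior of 0.25 counts. Lengths and positions come from GENCODE M21, matched without version for 55154 of 55421 identifiers. Marker relations used exact permutation over 40320 pairings, adjusted over 116 relations. Covariates were the mean log2 CPM of marrow or muscle markers. Fits were checked on simulated counts.

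Library totals of 23699525 to 35747083 counts went with mean levels of 0.526 to 14.3 CPM in tested members. The biological coefficient of variation was 0.219. Members, 20 gene and marker lists and the tests were chosen with earlier results of these data known. The rule for named genes gave values in every library for tested members of groups 9 to 13, and in groups 1 to 8 for those with an unadjusted p under 0.05 or among the 3 highest of their cluster, and named 3 genes of smallest p in each cofactor, chromatin, limb and flanking list besides fixed genes. Ighm was not matched as a protein-coding gene. No protein sequences were used here. Single values of 1 tested member and of 1 cofactor are not reported here, and both stay in the counts and sums.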

Additional observations from a re-analysis of the deposited data

Results flagged for a closer look

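In 3 of 56 groups of 4 libraries (28 tested members in each of 2 treatments), the highest or lowest library stood apart from the others by a gap over the 95% critical value of Dixon's ratio for 4 samples. Chance alone gives about 1 such group in 20. Hoxa6 in doxorubicin 1 was low, at 0.435 CPM, against 0.593 to 0.608 CPM. Vehicle 3 was high for Hoxb4, at 9.95 CPM, and for Hoxb7, at 1.60 CPM; this library also had the lowest skeletal muscle score.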

How the results depend on the processing

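The count of Hox genes past the threshold was 0 in all settings run: both other scalings, both filters, both covariates, the replicate block, haemoglobin or mitochondrial genes left out, an adjusted p threshold of 0.1, DESeq2, limma-voom and each library left out. Over all tested genes the count of 0 became 29 in DESeq2 and 1 with no filter on low counts. With library size as the only scaling, 686 genes had an unadjusted p under 0.05, 151 of them higher, against 913 and 362, and 47.0% of log2 differences lay above 0, against 57.2%; of the Hox genes 22 of 29 lay above 0 in both. The replicate numbers share only a label: same-numbered libraries had deviations that correlated at 0.27, −0.22, 0.39 and 0.06. With the replicate block 5 Hox genes had an unadjusted p under 0.05, and 1466 of all genes did (1800 without vehicle 4). Hoxa4, Hoxa11 and Hoxd4 were among them as before, Hoxa13 and Hoxc10 came in, and Hoxc5 and Hoxc6 dropped out in edgeR. With no filter Hoxd13, at 8 counts, came in and Hoxc5 dropped out. Of 543 log2 differences recomputed for 29 Hox genes, 514 kept their direction and side of the threshold, and 29, in 10 genes, changed sign. With the muscle covariate these were 0.10 for Hoxa5, 0.15 for Hoxb2, 0.10 for Hoxb3, 0.14 for Hoxb7 and −0.0043 for Hoxd8. The marrow covariate gave 0.0853 for Hoxb7, and Hoxd9 was 0.10 with the replicate block and 0.26 in limma-voom. With 1 library left out the range was −0.22 to 0.0970 for Hoxa5, −0.0654 to 0.23 for Hoxa6, −0.26 to 0.16 for Hoxb2, −0.26 to 0.0846 for Hoxb3, −0.0767 to 0.42 for Hoxb6, −0.14 to 0.13 for Hoxb7, −0.0439 to 0.24 for Hoxb9, −0.0283 to 0.21 for Hoxc8, −0.00700 to 0.43 for Hoxd8 and −0.42 to 0.33 for Hoxd9. The share of HoxA was 37.3% with the longest transcript and 37.9% with coding length, and that of HoxC 35.1% with coding length (taken from GENCODE M21). Relations to marker scores past the threshold fell from 3 to 0 with library size as the only scaling. The cause of these changes was not tested. Members with a few counts per library were not tested at this depth.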

Other observations

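At the posterior ends of HoxA and HoxD, Hoxa13 was tested, and the other transcripts named here were too low to test and did not all lean one way. Hottip, a non-coding RNA beside Hoxa13, had 0 counts in each vehicle library and 1, 2, 1 and 0 in doxorubicin 1 to 4, and Hoxd13 had 0 in each vehicle library and 2, 1, 2 and 3. Evx1, beyond Hoxa13, had 0, 0, 0.0254 and 0.101 CPM in vehicle 1 to 4 and 0.174, 0.0901, 0.0659 and 0.0434 CPM in doxorubicin 1 to 4, with groups that overlapped. Evx2, beyond Hoxd13, had 0, 0, 0.0508 and 0.0338 CPM and 0, 0.0601, 0 and 0 CPM in the same order, and Hoxd11 and Hoxd12 had 0 counts in both groups. These genes were picked after their values were seen, and no test was run on them.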
